A study of Homo sapiens with 18 samples.

Results

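The vault RNAs (VTRNA1-1, VTRNA1-2, VTRNA1-3 and VTRNA2-1), the Y RNAs (RNY1, RNY3, RNY4 and RNY5) and the catalytic RNAs RMRP and RPPH1 are short non-coding RNAs made by RNA polymerase III. They were followed in ZR-75-1 cells, a luminal breast cancer cell line. Genes were chosen by these 10 symbols and not by their levels, and 9 of the 10 had a row among the 60252 gene rows of the deposited count tables. Rows were found by gene ID for 8 of them, and for RPPH1 by placing its sequence on the genome. The gene ID that the annotation gives RMRP had no row, so RMRP is not analysed here. The tables also hold 1390 rows under IDs that the annotation lacks, and whether RMRP stands under any of them was not tested.

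Total RNA was sequenced from 18 libraries in 6 groups of 3 biological replicates. The groups were ADAR knockdown cells with 100 nM triptolide, control cells with triptolide, knockdown cells with DMSO, control cells with DMSO, untreated knockdown cells and untreated control cells. The control line is named SHC in the protocols, which do not say what that stands for, how the knockdown was made or whether a line is 1 clone. All 6 groups were kept for 16 h in medium with low serum before RNA extraction, and DMSO served as the vehicle. ADAR, the enzyme that edits adenosine to inosine where RNA is double-stranded, had lower mRNA in knockdown than in control libraries of the same replicate number in 9 of 9 pairs. Its knockdown-to-control ratio was 0.312 to 0.444 with triptolide, 0.536 to 0.775 with DMSO and 0.51 to 0.74 without treatment. The groups overlapped with DMSO and without treatment, and edgeR called ADAR in none of the 3 comparisons of the lines (adjusted p = 0.32 with triptolide and 1 otherwise); with the replicate number as a block it called the difference with triptolide (adjusted p = 0.00019) and not the other two. Whether replicates were separate cultures is not said beyond the word biological, so p-values measure the spread between these libraries.

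RNA polymerase III makes short RNAs such as transfer RNAs, 5S ribosomal RNA and U6, and it ends its transcripts at runs of T. RPPH1 is the RNA of RNase P, which removes the leader of transfer RNA precursors, and RMRP is the RNA of the related RNase MRP, which takes part in the processing of ribosomal RNA. Vault RNAs are bound by the vault particle, VTRNA1-1 also binds the autophagy receptor p62, and VTRNA2-1 binds the kinase PKR. Y RNAs are bound by the Ro60 and La proteins and have been tied to the start of DNA replication. Triptolide binds XPB, a subunit of the general transcription factor TFIIH, and so blocks transcription by RNA polymerase II.

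The sequences of the vault RNAs are shown because the 3 genes of the VTRNA1 cluster are alike over most of their length, which bears on how reads can be told apart. Capitals mark the 16-base run that all 4 share, the longest such run. The bases are those of the GENCODE transcripts on GRCh37, written with T for U.
VTRNA1-1: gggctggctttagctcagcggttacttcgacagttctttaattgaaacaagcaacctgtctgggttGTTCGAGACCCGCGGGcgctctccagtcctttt
VTRNA1-2: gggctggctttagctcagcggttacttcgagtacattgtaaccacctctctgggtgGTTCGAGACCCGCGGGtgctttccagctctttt
VTRNA1-3: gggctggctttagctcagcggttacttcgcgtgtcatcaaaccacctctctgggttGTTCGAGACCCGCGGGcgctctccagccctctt
VTRNA2-1: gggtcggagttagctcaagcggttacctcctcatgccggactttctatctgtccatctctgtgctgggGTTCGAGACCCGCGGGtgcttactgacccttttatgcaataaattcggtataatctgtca
VTRNA1-1, VTRNA1-2 and VTRNA1-3 lie in a row on the plus strand of chromosome 5, at chr5:140090860-140090958, chr5:140098510-140098598 and chr5:140105743-140105831. VTRNA2-1 lies at chr5:135416159-135416286 on the minus strand. Among the 3 cluster genes, identity was 81.8 to 87.8%, against 55.0 to 55.1% between each of them and VTRNA2-1.

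RNY1, RNY4 and RNY5 are printed for the same comparison among Y RNAs. Capitals mark an 8-base run that starts at base 4 in each of these 3.
RNY1: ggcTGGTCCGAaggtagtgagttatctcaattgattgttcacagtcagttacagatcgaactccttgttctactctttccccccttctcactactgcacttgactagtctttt
RNY4: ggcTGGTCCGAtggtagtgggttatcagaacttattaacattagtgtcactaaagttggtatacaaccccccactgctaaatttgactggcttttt
RNY5: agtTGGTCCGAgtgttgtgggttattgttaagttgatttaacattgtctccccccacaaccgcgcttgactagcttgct
They lie on chromosome 7, with RNY1 at chr7:148684228-148684340 on the minus strand. On the plus strand lie RNY4 at chr7:148660407-148660502 and RNY5 at chr7:148638580-148638658. Between pairs of these 3, identity was 57.0 to 63.7%. Each of these vault and Y RNA genes is a single exon that is its whole annotated transcript. The annotated sequences of VTRNA1-3, VTRNA2-1 and RNY5 do not end in 4 T, and whether they match the ends of the RNAs was not tested. In addition, the tables hold 855 rows of other Y RNA copies in the genome, of which 603 had counts. The 4 Y RNA genes took 11435 counts over all libraries, against 15165 for those copies, so reads may have been split between them.

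RPPH1 was placed by sequence. The RefSeq promoter window of PARP2 (build GRCh38.p14), which includes the first 27 bases of RPPH1, matched GRCh37 at a single site on chromosome 14. Those 27 bases fell inside the row of the gene ID ENSG00000259001, which runs over chr14:20811207-20811844 on the minus strand, is annotated as a long non-coding RNA that hosts another non-coding RNA, and has 638 exon bases against the 341 bases of RPPH1. It is called the RPPH1 locus row here, since its counts can include reads outside RPPH1. It overlaps PARP2 on the opposite strand by 71 bases. RNY5 lies within the long non-coding RNA ENSG00000286171 and the VTRNA1 genes within ENSG00000292256, on the same strand in each case. Neither of these had a row in the tables, and the part of their reads in the counts of the short genes was not tested. The library kit keeps strand, but whether counting used strand is not given in the sources used here.

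Counts in genes came to 26.7 to 35.7 per library, in units of 1e6. Ribosomal RNA of mitochondria made up 42.7 to 55.2% of the counts of triptolide libraries, against 20.2 to 37.1% in DMSO and untreated libraries. All 10 luminal epithelial markers averaged at least 1 CPM (counts per 1e6 counts in genes, TMM-scaled), with KRT8 at 2732 CPM. That level was reached by 0 of 3 basal, 1 of 4 stromal and 1 of 3 endothelial markers. The luminal sum ran from 3367 to 7327 CPM over the libraries, the stromal sum from 8.55 to 33.1 CPM, the endothelial sum from 0.807 to 5.12 CPM and the basal sum from 0.122 to 1.4 CPM. TMM is a scaling that sets most genes equal between libraries. In bulk RNA, fewer cells with a transcript and less transcript per cell cannot be told apart.

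Per kilobase of exon, the RPPH1 locus row averaged 8407 CPM over the 18 libraries, RNY1 157, VTRNA1-3 109, RNY3 28, RNY5 6.56, VTRNA2-1 2.37, VTRNA1-2 1.92, RNY4 0.447 and VTRNA1-1 0.438 CPM per kilobase. The RPPH1 locus row was above RNY1, and VTRNA1-3 above RNY3, in 18 of 18 libraries. RNY1 was above VTRNA1-3 in 12 of 18 libraries and RNY5 above VTRNA2-1 in 13 of 18, so these neighbours cannot be put in order in every library. VTRNA1-3 thus had the highest counts per length of the vault RNAs. Its close copies VTRNA1-1 and VTRNA1-2 had 21 and 79 counts over all libraries, against 4940 for VTRNA1-3. The vault and Y RNA rows are 79 to 128 bases long, against 638 for the RPPH1 locus row. How well RNAs of each length were captured was not tested, so this order need not be that of levels in the cells. In all, 6 genes passed the filter on low counts (the RPPH1 locus row, VTRNA1-3, VTRNA2-1, RNY1, RNY3 and RNY5), and VTRNA1-1, VTRNA1-2 and RNY4 did not.

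**Figure D1:**
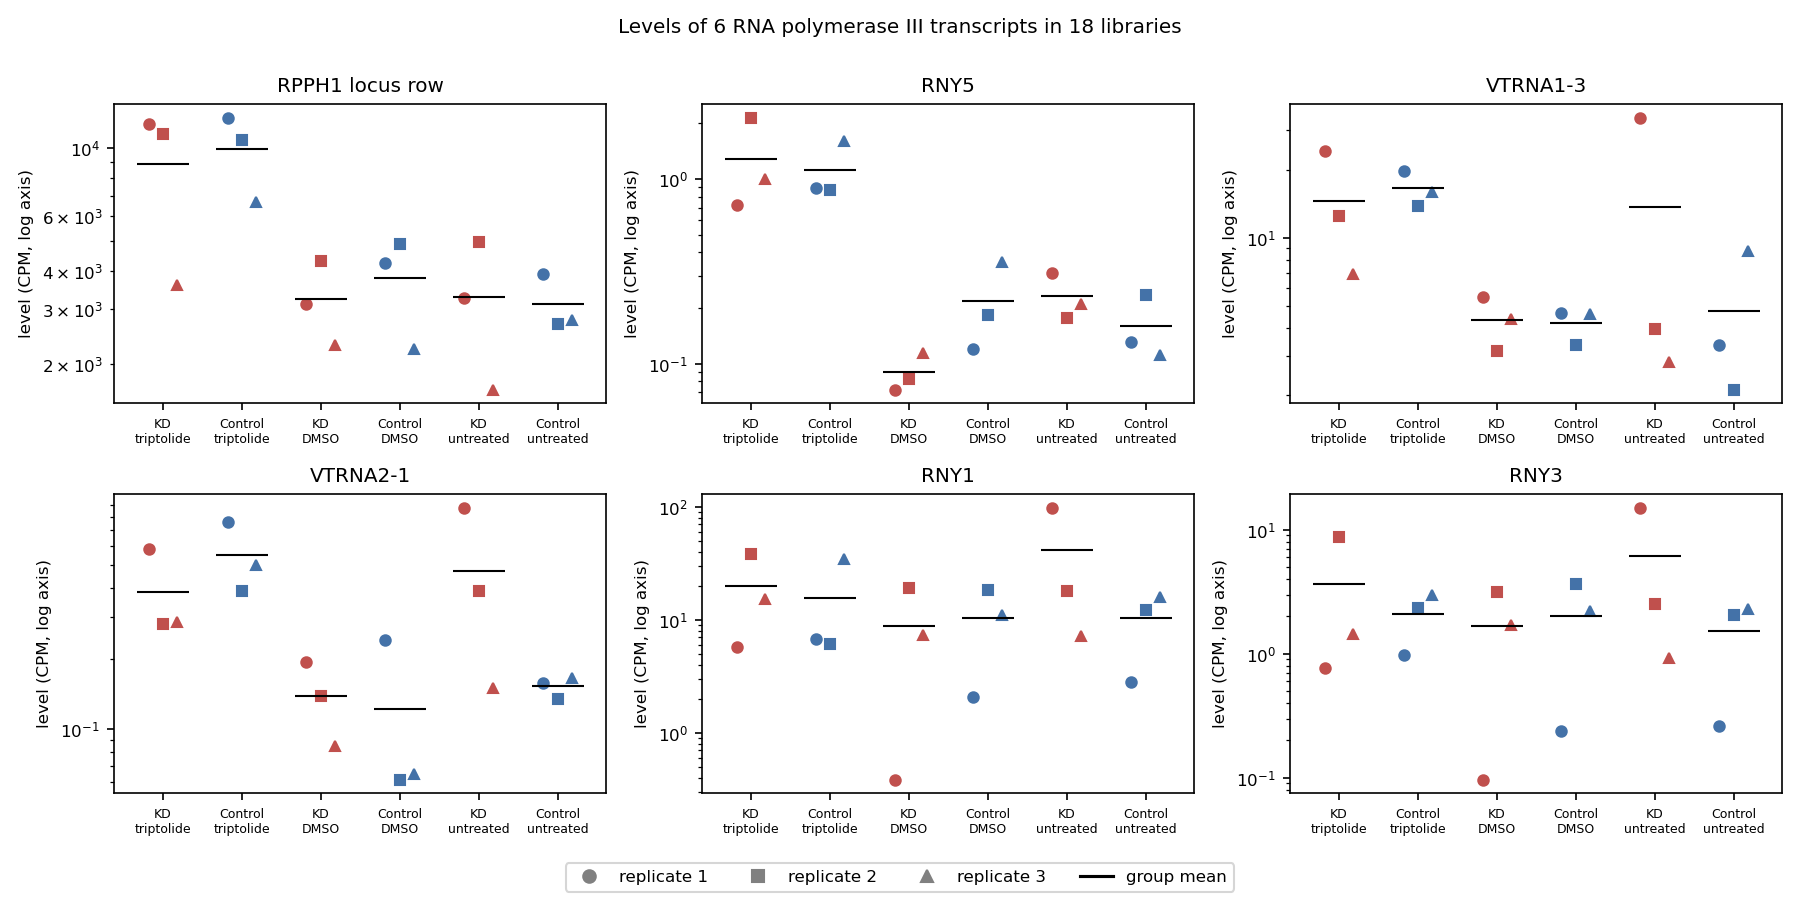
Level of each gene that passed the low-count filter in every library (CPM, log axis), with the marker shape giving the replicate number, red knockdown, blue control, and the black line the group mean. The triptolide libraries lie above the DMSO libraries for RNY5, VTRNA1-3 and VTRNA2-1, while RNY1 and RNY3 spread widely within every group and are highest in untreated knockdown replicate 1.

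With triptolide against DMSO, the RPPH1 locus row and RNY5 rose in both lines, and VTRNA1-3 and VTRNA2-1 passed the test in the control line only. With the replicate number as a block, VTRNA1-3 and VTRNA2-1 passed in the knockdown line too (edgeR adjusted p = 0.014 and 0.028). RNY5 changed most, by 13.9-fold in the knockdown line and 5.12-fold in the control line, and the RPPH1 locus row rose 2.74-fold and 2.63-fold. RNY1 and RNY3 did not pass the test in either line. None of the 6 fell. These changes are relative to the other genes in the same libraries: scaled to mitochondrial mRNAs instead, RNY5 in the knockdown line was the only change that passed, and RNY1 and RNY3, which did not pass, had log2 values of -0.08 ± 0.87 and -0.03 ± 0.98 (SE) in the knockdown line and -0.55 ± 0.87 and -0.73 ± 0.99 in the control line. Under mitochondrial scaling and the replicate block together, RNY5 passed in both lines and VTRNA1-3 in the control line.

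By edgeR's quasi-likelihood test with Benjamini-Hochberg adjustment over 21285 genes, 2 of 6 were called higher in the knockdown line, where 16.7% of all genes tested were called higher, and 4 of 6 in the control line, where 14.9% were. With the replicate number as a block, the counts were 4 of 6 in each line, against 29.1% of all genes in the knockdown line and 26.1% in the control line. With mitochondrial scaling 1 of 6 was called higher in the knockdown line and 0 in the control line, where 3.89% and 5.0% of all genes were called higher and 53.6% and 28.1% lower. The median log2 change of the 6 was 1.44 in the knockdown line and 1.69 in the control line, against 0.04 and 0.03 over all genes tested. The genes had to pass the filter through some group, so their counts describe these 6 and not all 10. RNY5 passed only through its triptolide libraries, with 16 to 46 counts there and 3 to 11 in the others. VTRNA2-1 also needed some of its triptolide libraries to pass. Their part in these counts and medians is therefore not independent of the filter.

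The RPPH1 locus row had 11899, 11082 and 3584 CPM in knockdown cells with triptolide, against 3110, 4294 and 2294 CPM with DMSO (replicates 1, 2 and 3). The groups overlapped, since triptolide replicate 3 stood below DMSO replicate 2, but the triptolide library was the higher of each pair, by 3.83, 2.58 and 1.56 times. In control cells the row had 12513, 10584 and 6674 CPM with triptolide, against 4227, 4862 and 2236 CPM with DMSO. Those groups did not overlap, with ratios of 2.18 to 2.99 within pairs. The log2 change was 1.45 ± 0.44 (SE) in the knockdown line, with an edgeR adjusted p of 0.016, and 1.39 ± 0.44 in the control line, with an edgeR adjusted p of 0.024. The call in the knockdown line was lost when DMSO replicate 1 (edgeR adjusted p = 0.051) or 3 (0.074), or triptolide replicate 1 (0.076) or 2 (0.062) was left out, and in the control line without triptolide replicate 1 (0.085) or 2 (0.054) or DMSO replicate 3 (0.11). With the replicate block, the edgeR adjusted p was 6.1e-05 in the knockdown line and 3.9e-05 in the control line.

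PARP2, the DNA repair enzyme whose gene starts beside RPPH1 on the other strand, moved the other way. It averaged 5.92 ± 1.95 CPM with triptolide and 23.9 ± 2.95 CPM with DMSO in knockdown cells, and 7.38 ± 2.36 CPM with triptolide and 24.6 ± 3.08 CPM with DMSO in control cells (SD, n = 3 each). Its log2 change was -2.01 ± 0.31 (SE) in the knockdown line and -1.74 ± 0.30 in the control line, and both were called by edgeR (adjusted p = 0.00011 and 0.00043). The RPPH1 locus row took 55029 or more counts in every library.

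Of the vault RNAs, VTRNA1-3 had 24.3, 12.5 and 6.9 CPM in knockdown cells with triptolide, against 5.46, 3.15 and 4.34 CPM with DMSO. In control cells it had 19.9, 13.8 and 16.0 CPM with triptolide, against 4.64, 3.36 and 4.61 CPM with DMSO. In both lines each triptolide library stood above each DMSO library. The log2 change in the control line was 1.98 ± 0.73 (SE; edgeR adjusted p = 0.048), and this call was lost without any single one of the 6 libraries compared (edgeR adjusted p = 0.064 to 0.12). In the knockdown line the log2 change was 1.75 ± 0.72 with an edgeR adjusted p of 0.068. The adjusted p was 0.014 with the replicate block and 0.033 with DESeq2. Leaving out 1 library gave an edgeR adjusted p of 0.047 without triptolide replicate 3, 0.27 without triptolide replicate 1 (log2 change 1.15) and 0.094 to 0.17 without each of the others.

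VTRNA2-1 was about 0.5 CPM or less in most libraries and rests on few reads. It had 0.585, 0.28 and 0.286 CPM in knockdown cells with triptolide (13, 6 and 8 counts), against 0.193, 0.138 and 0.0852 CPM with DMSO (8, 5 and 3 counts). In control cells it had 0.762, 0.387 and 0.501 CPM with triptolide (18, 8 and 10 counts), against 0.239, 0.0611 and 0.0645 CPM with DMSO (10, 2 and 2 counts). Triptolide and DMSO libraries again did not overlap in either line. The log2 change was 2.09 ± 0.67 (SE; edgeR adjusted p = 0.024) in the control line and 1.42 ± 0.67 (edgeR adjusted p = 0.11) in the knockdown line, where the replicate block gave an edgeR adjusted p of 0.028. The control-line call was lost without triptolide replicate 1 (edgeR adjusted p = 0.10), DMSO replicate 2 (0.085) or DMSO replicate 3 (0.093), and without DMSO replicate 1 its log2 change was 3.04.

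The other vault RNAs were close to the limit of counting. VTRNA1-1 had 12 counts over the 6 triptolide libraries, against 4 over the DMSO and 5 over the untreated libraries. VTRNA1-2 had 56, 16 and 7 counts over the same sets, but 39 of the 56 came from knockdown triptolide replicate 1 and 15 from control triptolide replicate 1. In a fit with no filter on low counts, VTRNA1-2 was called in the knockdown line (log2 change 2.78 ± 0.86, edgeR adjusted p = 0.0095), whereas DESeq2 gave an adjusted p of 0.23. The ambiguous tally, which holds reads that overlap more than 1 gene, was 5.76 to 8.37% of all tallied reads, and reads that aligned to several places were 10.2 to 22.6%. How many of those came from the VTRNA1 copies was not tested.

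Among the Y RNAs, RNY5 had 0.721, 2.15 and 1.00 CPM in knockdown cells with triptolide (16, 46 and 28 counts), against 0.0722, 0.0828 and 0.114 CPM with DMSO (3, 3 and 4 counts). In control cells it had 0.889, 0.871 and 1.6 CPM with triptolide (21, 18 and 32 counts), against 0.12, 0.183 and 0.355 CPM with DMSO (5, 6 and 11 counts). All 6 triptolide libraries stood above all 12 others, by 8.82 to 26.0 times within pairs of the knockdown line and 4.52 to 7.43 times in the control line. The log2 change was 3.79 ± 0.58 (SE) in the knockdown line, with an edgeR adjusted p of 0.00011, and 2.36 ± 0.53 in the control line, with an edgeR adjusted p of 0.0028. Both calls held without each library in turn (edgeR adjusted p up to 0.001 in the knockdown line and 0.019 in the control line), and the knockdown log2 change was 3.21 without triptolide replicate 2. In the knockdown line the fold rests on a DMSO level of 10 counts in all.

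RNY4, the Y RNA with the fewest counts, had 16 counts over the triptolide libraries, with at least 1 in each of the 6, against 2 over the DMSO libraries (in 2 of 6) and 1 over the untreated libraries (in 1 of 6). In untreated control cells it had 0 counts, which allows a level of up to 0.0288 CPM (3 counts over the group, counting error only). It did not pass the filter. Tested without that filter, its edgeR adjusted p was 0.17 in each line, and DESeq2 gave 0.17 in the knockdown line and 0.16 in the control line.

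RNY1, the Y RNA with the most counts, had 5.72, 38.4 and 15.4 CPM in knockdown cells with triptolide, against 0.385, 19.0 and 7.35 CPM with DMSO. In control cells it had 6.77, 6.1 and 34.3 CPM with triptolide, against 2.06, 18.5 and 11.0 CPM with DMSO. The groups overlapped in both lines, and the triptolide library was the higher in 3 of 3 pairs of the knockdown line and 2 of 3 of the control line. The log2 change was 1.15 ± 1.12 (SE; edgeR adjusted p = 0.44) in the knockdown line and 0.58 ± 1.11 (edgeR adjusted p = 0.73) in the control line. In the knockdown line it was 0.24 without triptolide replicate 2 and 2.35 without DMSO replicate 2, neither called, and with no filter on low counts it was called (log2 change 1.05, edgeR adjusted p = 0.003).

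RNY3 had 0.766, 8.79 and 1.43 CPM in knockdown cells with triptolide, against 0.0963, 3.18 and 1.7 CPM with DMSO. In control cells it had 0.974, 2.32 and 2.96 CPM with triptolide, against 0.239, 3.64 and 2.19 CPM with DMSO. It was higher with triptolide in 2 of 3 pairs in each line, and the groups overlapped. The log2 change was 1.14 ± 1.16 (SE; edgeR adjusted p = 0.47) in the knockdown line and 0.05 ± 1.16 (edgeR adjusted p = 0.98) in the control line. The SEs of RNY1 and RNY3 were about as large as these changes or larger, so in this fit a change of that size could not be told from none.

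**Figure D2:**
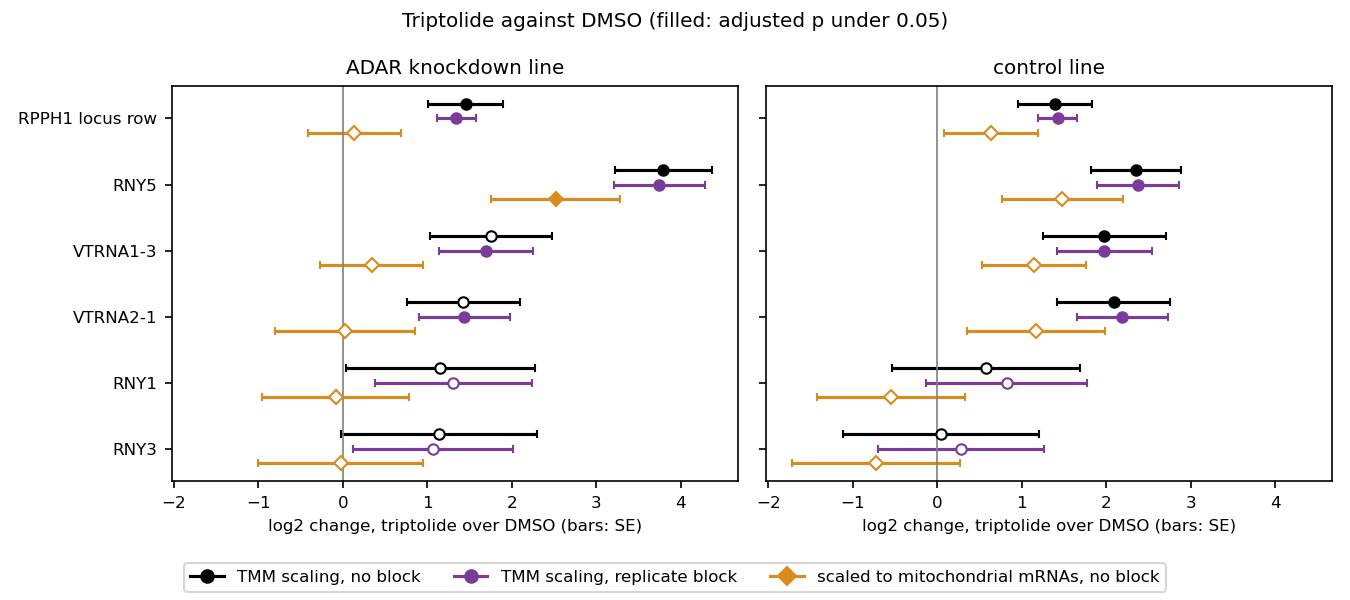
Log2 change with triptolide over DMSO for 6 genes, with bars of 1 SE, under TMM scaling without and with the replicate block and under scaling to mitochondrial mRNAs. Filled points have an edgeR adjusted p under 0.05: RNY5 in the knockdown line is filled under all 3, RPPH1 and RNY5 in both lines under TMM, and the points of RNY1 and RNY3, open throughout, lie at -0.03 to -0.73 under mitochondrial scaling.

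Which RNAs are taken as unchanged sets the sign of some of these values. Scaled to mitochondrial mRNAs, the median gene stood at a log2 change of -1.36 with triptolide in the knockdown line and -0.79 in the control line, and with plain library sizes at -0.67 and -0.60. Relative to the median gene, the mitochondrial scaling left the RPPH1 locus row at 1.5 and 1.42, RNY5 at 3.88 and 2.27, VTRNA1-3 at 1.71 and 1.94, VTRNA2-1 at 1.39 and 1.96, RNY1 at 1.28 and 0.24, and RNY3 at 1.34 and 0.06 in the knockdown and the control line. Without that subtraction, RNY5 in the knockdown line remained called (log2 change 2.52, edgeR adjusted p = 0.0069), and the RPPH1 locus row stood at 0.13 and 0.64, neither called. Mitochondrial mRNAs themselves were called higher with triptolide under TMM for 11 of 13 in the knockdown line and 5 of 13 in the control line, where 16.7% and 14.9% of all genes were, and for 13 and 11 of 13 with the replicate block, beside the rise in mitochondrial ribosomal RNA; their part in the result was not tested.

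The response to triptolide did not pass a test of difference between the lines. For RNY5, the interaction, that is the triptolide change in knockdown minus that in control cells, was 1.44 ± 0.77 on the log2 scale (SE), with an unadjusted p of 0.078 and an edgeR adjusted p of 1. For the RPPH1 locus row it was 0.06 ± 0.62, for VTRNA1-3 -0.23 ± 1.0 and for VTRNA2-1 -0.67 ± 0.95. Of the 6 genes, 0 were called by edgeR and 0 had an unadjusted p under 0.05, with 0.0% of all genes called in either direction. DESeq2 also called 0, as did edgeR with the replicate block, where 0.0047% of all genes were called higher.

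Between knockdown and control cells under the same treatment, 0 of the 6 genes were called by edgeR or by DESeq2. With triptolide and with DMSO, 0 of the 6 also had an unadjusted edgeR p under 0.05. Of all genes tested, edgeR called 0.0188% higher and 0.047% lower with triptolide, 0.0376% higher and 0.0564% lower with DMSO, and 0.0282% higher and 0.0705% lower without treatment. With the replicate block 0 of the 6 were called as well, where edgeR called 0.385% higher and 0.258% lower with triptolide, 0.357% higher and 0.249% lower with DMSO, and 0.301% higher and 0.277% lower without treatment. With triptolide, the log2 differences of the 6 ran from -0.53 ± 0.63 (VTRNA2-1) to 0.81 ± 1.16 (RNY3), and the RPPH1 locus row was at -0.16 ± 0.44 (SE). With DMSO, RNY5 was the gene farthest from 0, at -1.24 ± 0.60, with an unadjusted p of 0.055 and an edgeR adjusted p of 1. Its 3 knockdown DMSO libraries, at 0.0722 to 0.114 CPM, all stood below the 3 control DMSO libraries, at 0.12 to 0.355 CPM, but they differ by 1 to 8 counts. The other 5 genes lay between -0.28 and 0.14 with DMSO.

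Without treatment, 4 of the 6 genes had log2 differences above 1.5. For RNY1, RNY3 and VTRNA1-3 these rested on a single library, and for VTRNA2-1 in part. In untreated knockdown replicate 1, RNY1 stood at 98.7 CPM, against 17.9 and 7.26 CPM in replicates 2 and 3 of its group and 2.82, 12.3 and 16.0 CPM in untreated control cells. RNY3 stood at 15.1 CPM there, against 2.5 and 0.927 CPM in replicates 2 and 3 and 0.261, 2.05 and 2.3 CPM in control cells. VTRNA1-3 stood at 34.2 CPM there, against 3.94 and 2.81 CPM in replicates 2 and 3 and 3.34, 2.12 and 8.72 CPM in control cells. That library thus held the highest level of RNY1, RNY3, VTRNA1-3 and VTRNA2-1 of all 18.

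VTRNA2-1 had 0.875, 0.387 and 0.149 CPM in untreated knockdown cells, against 0.157, 0.135 and 0.166 CPM in untreated control cells. The RPPH1 locus row had 3268, 4953 and 1645 CPM in untreated knockdown cells, against 3891, 2677 and 2758 CPM in untreated control cells. RNY5 had 0.31, 0.176 and 0.209 CPM in untreated knockdown cells, against 0.131, 0.235 and 0.111 CPM in untreated control cells. The groups of the RPPH1 locus row and of RNY5 overlapped, and replicate 1 did not stand apart for either in the way it did for RNY1. Other short non-coding RNA rows (up to 150 bases, 3932 rows) summed to 702 CPM in untreated knockdown replicate 1, within the 251 to 1351 CPM of all libraries. Among libraries of replicate 1, the sum was lower in untreated control (259 CPM), control DMSO (288 CPM) and knockdown DMSO (297 CPM). Rows of other Y RNA copies summed to 42.6 CPM in untreated knockdown replicate 1, against 21.5, 29.5 and 29.0 CPM in the same order. Whether short RNAs were captured more in that library was not tested.

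With that library, the log2 differences between untreated knockdown and control cells were 2.0 ± 1.14 for RNY1, 2.01 ± 1.17 for RNY3, 1.53 ± 0.72 for VTRNA1-3 and 1.60 ± 0.65 for VTRNA2-1 (SE). Without it they were 0.28 ± 1.14, 0.16 ± 1.19, -0.49 ± 0.53 and 0.78 ± 0.68. None was called by edgeR in either case (adjusted p = 1), and with it 2 of the 6, VTRNA1-3 and VTRNA2-1, had an unadjusted p under 0.05. The fit with the replicate block also called none, and there the genes under 0.05 were RNY1 (2.97 ± 1.06), RNY3 (2.82 ± 1.06) and VTRNA2-1 (1.45 ± 0.52).

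DMSO against untreated cells gave 0 called genes among the 6 and 0.0% among all genes by edgeR, in both lines. In the knockdown line 3 of the 6 had an unadjusted edgeR p under 0.05, namely VTRNA2-1 (log2 change -1.73 ± 0.65), VTRNA1-3 (-1.66 ± 0.72) and RNY5 (-1.35 ± 0.60). The replicate block brought this to 5 of the 6, with RNY1 (-3.40 ± 1.10) and RNY3 (-2.87 ± 1.06) added, and 0 were called. Without untreated knockdown replicate 1 and without the block, VTRNA2-1 was at -0.90 ± 0.68, VTRNA1-3 at 0.36 ± 0.52 and RNY5 at -1.08 ± 0.68. In the control line 0 of the 6 had an unadjusted p under 0.05. DESeq2 called 0 in both.

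RNY1 and RNY3 varied together over the libraries. Pearson's r of log2(CPM + 1) was 0.93 and Spearman's rho 0.92 over 18 libraries that share depth and scaling, and the ratio of their counts ran from 2.62 to 11.6 with a median of 6.74. Both were lowest in knockdown DMSO replicate 1, with 16 counts of RNY1 and 4 of RNY3, and both highest in untreated knockdown replicate 1, with 3497 and 535 counts. VTRNA1-3 and VTRNA2-1 had r = 0.87 and rho = 0.80, whereas RNY1 and the RPPH1 locus row had r = 0.08 and rho = 0.08. RNY5 had r = 0.38 and rho = 0.29 with RNY1, and r = 0.67 and rho = 0.47 with the RPPH1 locus row.

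**Figure D3:**
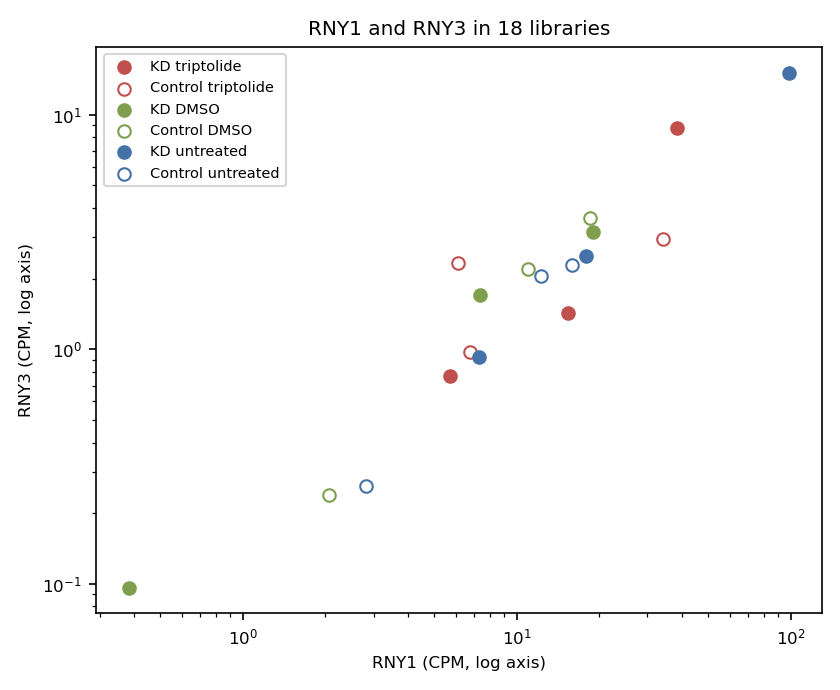
Level of RNY3 against that of RNY1 in each library (CPM, both axes log), with filled points for knockdown and open points for control cells, coloured by treatment. The points follow a single band from knockdown DMSO replicate 1 at the lower left to untreated knockdown replicate 1 at the upper right, with the treatments mixed along it.

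Among 10518 other genes with a mean of at least 5 CPM, those most like the RPPH1 locus row over the 18 libraries were BAIAP3 (r = 0.951), RN7SL3 (0.943) and COL6A1 (0.938). RN7SL3 is a copy of the signal recognition particle RNA. For VTRNA1-3 they were the pseudogene row ENSG00000225813 (r = 0.934), POLR2A (0.900), which encodes the largest subunit of RNA polymerase II, and EP400P1 (0.899). For RNY1 the closest were RPLP0P6 (r = 0.825), IGF2 (0.803) and MTRNR2L1 (0.793), all lower than its r with RNY3.

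Under TMM scaling, other transcripts of RNA polymerase III went the same way with triptolide. Of 17 listed, 8 were tested and 5 rose in the knockdown line and 4 in the control line, with none called lower; with the replicate block 8 and 7 rose, and with mitochondrial scaling 1 and 2. Of all genes, 16.7% and 14.9% were called higher without the block, 29.1% and 26.1% with it, and 3.89% and 5.0% with mitochondrial scaling. RNU6-2, a gene of the spliceosomal U6 RNA, had a log2 change of 2.85 ± 0.51 (SE) in the knockdown line and 2.29 ± 0.50 in the control line. For RNU6-8 it was 2.41 ± 0.42 in the knockdown line and 2.08 ± 0.42 in the control line, and for RN7SL3 1.41 ± 0.43 and 1.42 ± 0.43. U6 and signal recognition particle RNA genes have near-identical copies, so counts of a single copy are uncertain. The median of the 8 was 1.90 in the knockdown and 1.72 in the control line, against 0.04 and 0.03 over all genes. These 8 had to pass the low-count filter through some group, and whether any passed only through triptolide libraries was not tested. Their counts and medians may therefore not be independent of the filter.

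mRNAs of RNA polymerase III itself and of its initiation factors fell or did not pass. Of 32 tested, 15 fell in the knockdown line and 12 in the control line, with none called higher, where 18.9% and 16.0% of all genes were called lower, and the medians were -0.71 and -0.52. With the replicate block 21 and 20 fell and 1, GTF3C6, rose in each line, where 28.1% and 26.0% of all genes fell. With mitochondrial scaling 30 and 21 fell, where 53.6% and 28.1% of all genes did. POLR3E, a subunit of the enzyme, fell by a log2 change of -2.06 ± 0.24 (SE) in the knockdown line and -2.44 ± 0.25 in the control line. GTF3C4, a subunit of the factor TFIIIC, fell by -1.96 ± 0.20 and -1.62 ± 0.20, GTF3C2 of the same factor by -1.58 ± 0.20 and -1.45 ± 0.20, and POLR3A, the largest subunit, by -1.18 ± 0.21 and -0.98 ± 0.21.

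Of 11 genes for the proteins of RNase P and RNase MRP, 6 fell in the knockdown line and 5 in the control line, and none was called higher. Of all genes, 18.9% and 16.0% were called lower. With mitochondrial scaling 11 and 7 of the 11 fell, against 53.6% and 28.1% of all genes. RPP38 fell by a log2 change of -2.04 ± 0.25 (SE) in the knockdown line and -1.65 ± 0.25 in the control line, and RPP21 by -3.92 ± 0.84 and -2.29 ± 0.67. Under TMM their median was -1.21 in the knockdown and -1.0 in the control line, while the RPPH1 locus row, which includes the RNA of RNase P, was higher. Scaled to mitochondrial mRNAs, that row stood at 0.13 ± 0.55 and 0.64 ± 0.55 (SE), neither called.

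Of 23 listed genes for proteins that bind or process vault and Y RNAs, 22 were tested; 6 fell and 1 rose in the knockdown line, and 5 fell and none rose in the control line. Of all genes, 18.9% were called lower and 16.7% higher in the knockdown line, and 16.0% lower and 14.9% higher in the control line. With the replicate block, 12 fell and 4 rose in the knockdown line and 8 fell and 5 rose in the control line, where 28.1% and 26.0% of all genes fell and 29.1% and 26.1% rose. With mitochondrial scaling 18 and 10 of the 22 fell, where 53.6% and 28.1% of all genes did. DUSP11, a phosphatase that acts on ends of RNA polymerase III transcripts, fell by a log2 change of -1.01 ± 0.23 (SE) in the knockdown line and -0.90 ± 0.23 in the control line. TOE1, a deadenylase that trims small RNAs, fell by -1.78 ± 0.40 and -1.87 ± 0.40, and IFIT5, an interferon-induced RNA-binding protein, by -2.87 ± 0.85 and -2.55 ± 0.85. MATR3 was also called lower in both lines but has more than 1 gene ID, so its reads may be split. YBX1, a cold shock protein, rose by 0.75 ± 0.24 in the knockdown line, and 0 of the 22 were called higher under mitochondrial or library-size scaling.

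**Figure D4:**
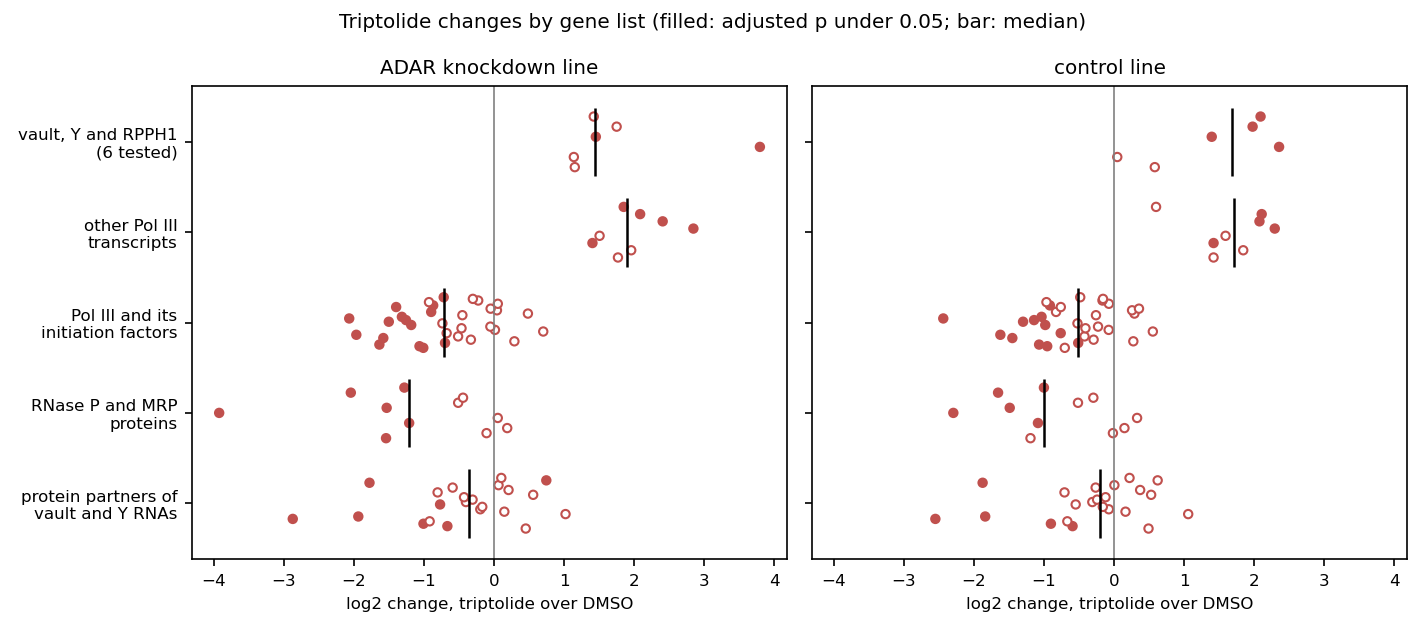
Log2 change with triptolide over DMSO for each tested gene of 5 lists, with filled points for an edgeR adjusted p under 0.05 and a black bar at the list's median. Under TMM scaling the RNAs that passed the low-count filter lie to the right of 0 in both lines (medians 1.44 to 1.90). Protein genes of RNA polymerase III and of RNase P and MRP have medians of -0.52 to -1.21. Under mitochondrial scaling RNY1 and RNY3 lie left of 0 by less than 1 SE.

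The nearest protein-coding genes did not follow the RNAs as a set. EZH2, a histone methyltransferase gene and the nearest to RNY5, fell by a log2 change of -1.39 ± 0.21 (SE) in the knockdown line and -1.27 ± 0.21 in the control line. PDIA4, a protein disulfide isomerase gene and the nearest to RNY1, RNY3 and RNY4, rose by 0.90 ± 0.18 and 0.80 ± 0.18. ZMAT2, the nearest to the VTRNA1 cluster, rose by 0.71 ± 0.20 and 0.76 ± 0.20. Neither PDIA4 nor ZMAT2 was called higher under mitochondrial or library-size scaling. TGFBI, the nearest to VTRNA2-1, did not pass (log2 change 0.57 ± 0.38 and 0.62 ± 0.39).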

How the data were processed

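Total RNA of 18 libraries was measured. The values the authors deposited are raw, unnormalized counts for each gene. Per the submitters' processing notes, reads were aligned to hg19 with STAR 2.4.2a, counted with HTSeq 0.6.1 and compared with DESeq2 1.4.5 in R 3.1; annotation release and use of strand are not given in the sources used here. Gene IDs were matched to GENCODE release 44 on GRCh37 (58862 of 60252, 97.7%); neighbours and the RPPH1 window came from RefSeq and that annotation. The 5 HTSeq tallies of reads given to no single gene, 24.9 to 35.4% of tallied reads, were left out. Counts were scaled by TMM and tested two-sided with edgeR 4.0.16 (R 4.3.3), 1 fit of 18 libraries with 12 residual degrees of freedom, on 21285 genes passing its filter, in 8 comparisons; calls have an adjusted p under 0.05. SE is the log2 change over the root of its F. Alternatives were the replicate block (10 residual degrees of freedom), RLE, library-size and mitochondrial scaling, other filters, fits of the compared libraries, DESeq2 1.42.0 and leaving out libraries.

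Same-numbered libraries of different groups had residuals (differences from the group mean) that correlated at r = 0.476 to 0.887 over 14392 genes (45 pairs). Differently numbered ones correlated at -0.691 to -0.0192 (90 pairs). Residuals within a group cancel out, so these negative values follow on average from the positive ones. Each of the 18 was closest to libraries of its own number, so the numbers were taken as pairs for ratios and the replicate block. The main fit has no block and leaves this pairing out. No library was a copy: chi-square over its degrees of freedom was 53.4 or more for each pair of replicates. The 95% Wilson interval of the share of the RPPH1 locus row was at most 0.0038 percentage points wide to each side, for counting error only. The fit was tested on simulated counts. Named genes were the 10 symbols, ADAR, up to 4 called genes of each list by smallest p, nearest coding genes, and the 3 genes most alike in pattern. The genes and lists were chosen with earlier results of these data known. Some sequences and marker values are not reported here.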

Additional observations from a re-analysis of the deposited data

How the results depend on the processing

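The number of vault, Y and RPPH1 locus rows called with triptolide over DMSO in the knockdown line, 2, was 4 with the replicate block, 5 with no filter on low counts, where VTRNA1-2 was tested too and is 1 of the 5, and 1 each with library-size scaling, mitochondrial mRNA scaling, the replicate block with mitochondrial scaling, and a filter at a mean of 1 CPM, where fewer genes were tested. Of all genes, 4627 of 48591 were called higher there with no filter and 2466 of 14354 with the 1 CPM filter. Of 21285, it was 6187 with the block, 1507 with library-size scaling, 827 with mitochondrial scaling and 1137 with block and mitochondrial scaling. In the control line the 4 were 1 with library-size scaling, 0 with mitochondrial scaling, 2 with the block and mitochondrial scaling, and 2 with the 1 CPM filter. In the same order, 1600, 1064 and 1544 of 21285 and 2018 of 14354 genes were called higher. Leaving out a library or a replicate number gave 1 to 3 calls in each line, and the shares of all genes called in those fits are not given here. In untreated knockdown against control cells, the count of 0 was 3 with no filter and 2 with the block and mitochondrial scaling, all higher. Of all genes, 59 of 48591 and 43 of 21285 were called higher there. For DMSO against untreated knockdown cells it was also 3 and 2, all lower, where 25 of 48591 and 11 of 21285 genes were called lower. Both comparisons hold untreated knockdown replicate 1. The block with mitochondrial scaling was chosen after seeing the data. The replicate block changed no other count of calls among these genes. Signs reversed for RNY1, in the knockdown line at -0.0837 (mitochondrial) and -0.0184 (block and mitochondrial), and in the control line at -0.0026 (library size), -0.55 (mitochondrial) and -0.12 (block and mitochondrial). RNY3 reversed in the knockdown line at -0.0276 (mitochondrial) and -0.32 (block and mitochondrial), and in the control line at -0.55 (library size), -0.73 (mitochondrial), -0.50 (block and mitochondrial) and -0.092 (no filter). The RPPH1 locus row in the knockdown line reversed at -0.16 (block and mitochondrial). With libraries left out, the log2 change of RNY3 ran from -0.59 to 2.01 in the knockdown line and from -0.50 to 0.80 in the control line, and that of RNY1 from 0.24 to 2.35 and from -0.72 to 1.60. The causes were not tested. Low counts limit VTRNA1-1, VTRNA1-2, RNY4, VTRNA2-1 and RNY5, and the spread between libraries limits RNY1 and RNY3.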

Other observations

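Among the 1390 rows whose gene IDs matched no annotated gene, the 2 with the most counts held 6948171 and 1146626 counts over the 18 libraries, more in the first case than the RPPH1 locus row with 2659238. They are given by ID only, with no gene name, and whether either holds reads of RMRP was not tested. ENSG00000283029 averaged 24778 ± 21409 CPM in knockdown cells with triptolide and 6740 ± 2704 CPM in knockdown cells with DMSO, and 28817 ± 14360 CPM in control cells with triptolide and 8358 ± 5184 CPM in control cells with DMSO (SD, n = 3 each). ENSG00000269900 averaged 2789 ± 1659 CPM in knockdown cells with triptolide and 1395 ± 63.9 CPM in knockdown cells with DMSO, and 3394 ± 1732 CPM in control cells with triptolide and 1745 ± 436 CPM in control cells with DMSO. By edgeR, ENSG00000283029 had a log2 change of 1.88 ± 0.68 (SE; adjusted p = 0.040) in the knockdown line and 1.79 ± 0.68 (adjusted p = 0.055) in the control line. ENSG00000269900 had 1.00 ± 0.51 (adjusted p = 0.14) in the knockdown line and 0.96 ± 0.51 (adjusted p = 0.17) in the control line by the same test; with the replicate block the adjusted p was 0.018 and 0.012.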
